A study of Mus musculus with 5 samples.

Results

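Zinc finger protein genes (Zfp genes) were examined for regions enriched in macroH2A1.2, a histone variant of the H2A family, in the chromatin of 3T3-L1 cells. Enriched regions of the 4 immunoprecipitated samples were merged where they shared at least 1 bp. A merged region was kept when it lay on an autosome and overlapped the body, or the 10 kb on either side, of a protein-coding gene whose symbol is Zfp followed only by digits. This rule gave 227 regions among 61942 merged autosomal regions, and 62927 merged regions in all. They were counted against 356 Zfp genes among 20807 autosomal protein-coding genes of the GENCODE M21 annotation of mm10. Genes were called clustered when gaps of at most 200 kb linked at least 3 Zfp genes, which was so for 183 genes in 29 clusters. Another 42 genes stood in pairs and 131 stood singly.

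3T3-L1 cells are mouse fibroblasts that can be turned into adipocytes in culture. The cells carried a lentivirus that stably expressed macroH2A1.2 fused to green fluorescent protein (GFP), so the anti-GFP antibody recovered the introduced protein and not the histone made by the cell itself. Chromatin was digested with micrococcal nuclease and sequenced from 2 samples of pre-adipocytes and 2 samples of mature adipocytes, with 1 library made without antibody as the common control. According to the labels, differentiation began 2 days after confluence with 60 h in a cocktail of insulin (10 µg/ml), dexamethasone (0.25 µM) and IBMX (500 µM), after which insulin alone was kept in the medium. The labels give no day of collection. For the mature adipocytes, the sample titles and a further label disagree, since the latter reads as before differentiation, and the titles were followed. The control's description likewise mentions anti-GFP, while its title and antibody label give no antibody, so every control count and fold enrichment rests on the title. The study's methods paragraph on immunoprecipitation names mouse adipose tissue, whereas the labels name 3T3-L1 cells, and the labels were followed. Whether replicates came from separate cultures is not given in the labels, and the p-values measure the spread between these samples only.

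Most mammalian Zfp genes encode proteins with arrays of C2H2 zinc fingers, which read DNA sequence. Many of them also carry a KRAB domain, which recruits the co-repressor Trim28 and the H3K9 methyltransferase Setdb1 to transposable elements and imprinted loci. KRAB zinc finger genes arose by repeated tandem duplication, and so they lie in large clusters of similar genes, which are often packaged as heterochromatin themselves. Zfp genes outside clusters are a more mixed group with older members, several of which act in cell differentiation. MacroH2A is best known from the inactive X chromosome and from broad domains of repressed chromatin.

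Sequencing depth differed between the samples. Regions of the 4 samples held between 2833105 and 11592708 ChIP reads, and replicate 2 of pre-adipocytes, the shallowest, had a library 0.549 times the size of the control library while the other samples were at 1.20 to 1.23 times. The median region at a Zfp gene held 191 and 51 ChIP reads in the pre-adipocyte samples and 116 and 112 in the mature adipocyte samples. Numbers of regions were 36468 and 38546 in pre-adipocytes and 59375 and 61196 in mature adipocytes over the whole genome. Those at Zfp genes numbered 96 and 89 in pre-adipocytes and 152 and 159 in mature adipocytes. Values below are given in the order pre-adipocytes replicate 1 and 2, then mature adipocytes replicate 1 and 2.

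Few of these regions reached a promoter. Of the 227 regions, 18 held the start of a Zfp gene, 91 overlapped a gene body and 136 lay only in the 10 kb beside a gene. RefSeq promoters (GRCm38.p6, from 250 bases before the start to 50 after it) were found for 294 of the 356 genes, and 18 of them (6.12%) overlapped a region in at least 1 sample, against 12.9% of all 15669 autosomal promoters. The promoter of Zfp663 was the only one of the 294 inside a region in all 4 samples, against 110 of all 15669 autosomal promoters. Upstream sequences of 4 promoters are shown because they span what was seen, from a promoter inside regions of every sample to one in the largest cluster without any region. They were chosen after the values were known. Each is the 250 bases before the gene start, 5′ to 3′ on the minus or plus strand of the gene, with CG dinucleotides in capitals.

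Zfp663, chr2:165368737-165368986, minus strand, in regions of 4 samples: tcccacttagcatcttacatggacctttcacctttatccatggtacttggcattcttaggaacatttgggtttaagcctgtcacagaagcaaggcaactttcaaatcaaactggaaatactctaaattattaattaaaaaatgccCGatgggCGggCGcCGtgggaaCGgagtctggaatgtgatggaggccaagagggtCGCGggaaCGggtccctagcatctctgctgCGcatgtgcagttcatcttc
Zfp810, chr9:22307639-22307888, minus strand, in regions of 3 samples: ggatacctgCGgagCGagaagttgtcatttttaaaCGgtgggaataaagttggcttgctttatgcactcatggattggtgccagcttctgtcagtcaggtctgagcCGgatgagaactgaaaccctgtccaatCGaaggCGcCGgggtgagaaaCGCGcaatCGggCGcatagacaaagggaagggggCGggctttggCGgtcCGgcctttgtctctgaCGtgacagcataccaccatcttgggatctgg
Zfp786, chr6:47830506-47830755, minus strand, in regions of 2 samples: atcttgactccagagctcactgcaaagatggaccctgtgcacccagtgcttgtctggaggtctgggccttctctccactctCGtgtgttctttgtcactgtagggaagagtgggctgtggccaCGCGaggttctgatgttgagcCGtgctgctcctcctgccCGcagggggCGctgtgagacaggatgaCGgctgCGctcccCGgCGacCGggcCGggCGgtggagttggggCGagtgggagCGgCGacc
Zfp382, chr7:30121682-30121931, plus strand, in no region: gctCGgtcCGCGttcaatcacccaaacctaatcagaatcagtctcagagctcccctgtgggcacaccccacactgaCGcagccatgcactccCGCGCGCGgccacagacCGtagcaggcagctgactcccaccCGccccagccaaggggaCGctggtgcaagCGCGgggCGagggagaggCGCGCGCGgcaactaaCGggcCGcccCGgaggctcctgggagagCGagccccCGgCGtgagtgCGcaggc

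The sequences differ in how many CG dinucleotides they hold, and the richest of them was the one outside every region. Over the 300 bases of the RefSeq entry, read on both strands at once since CG is its own reverse complement, the count was 13 in Zfp663, 20 in Zfp810, 23 in Zfp786 and 32 in Zfp382. At least 10 CG dinucleotides were present in 64.6% of Zfp promoters and 60.2% of all autosomal promoters. The median was 10.5 in clustered genes and 17 in single genes. Other promoters found in the cluster of Zfp382 held from 1 (Zfp27) to 20 (Zfp383), so the contrast among the printed sequences depends on the gene chosen. Among the 18 Zfp promoters inside a region the median was 15.5, and among the 276 outside it was 13. Autosomal promoters went the other way, with a median of 7 inside a region of at least 1 sample and 15 over all of them.

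Clustered Zfp genes had regions less often than single ones in each of the 4 samples. A region was present at 14, 13, 20 and 25 of the 183 clustered genes, which is 7.65%, 7.10%, 10.9% and 13.7%. At the 131 single genes it was present at 35, 41, 50 and 51, which is 26.7%, 31.3%, 38.2% and 38.9%. The lowest value of the single genes therefore stood above the highest of the clustered genes. On average the clustered genes were 23.9 percentage points lower (SD 3.49 over 4 samples), with differences from -27.2 to -19.1. An exact two-sided permutation test that flips the sign of each sample's difference gave p = 0.125, the smallest that 4 samples allow (0.330 after Benjamini-Hochberg adjustment over 37 tests). The difference was -7.71 points when gene bodies were taken without flanks and -9.86 when only regions with a fold enrichment of at least 2 were kept. The 42 paired genes lay between, at 16.7%, 9.52%, 28.6% and 26.2%, except in replicate 2 of pre-adipocytes, where they were close to the clustered genes.

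Against all autosomal protein-coding genes, of which 35.0%, 30.3%, 41.4% and 41.6% had a region, the single Zfp genes differed by -3.32 points on average (SD 3.82), lower in 3 of 4 samples, which is less than the spread between samples (exact permutation test, p = 0.250, adjusted 0.457). The clustered Zfp genes differed by -27.3 points (SD 3.04) and were lower in 4 of 4 samples (exact permutation p = 0.125, adjusted 0.330). Olfactory receptor genes, another large family in tandem arrays, were taken as a further reference. Regions were present at 8.10%, 8.65%, 9.38% and 8.28% of their 1087 genes, against 7.65%, 7.10%, 10.9% and 13.7% of clustered Zfp genes. The clustered Zfp genes were thus lower in both pre-adipocyte samples and higher in both mature adipocyte samples. Median gene length was 15745 bp in clustered genes, 21499 bp in single genes, 5982 bp in olfactory receptor genes and 17629 bp in all genes, and the part of length in the difference was not tested.

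**Figure D1:**
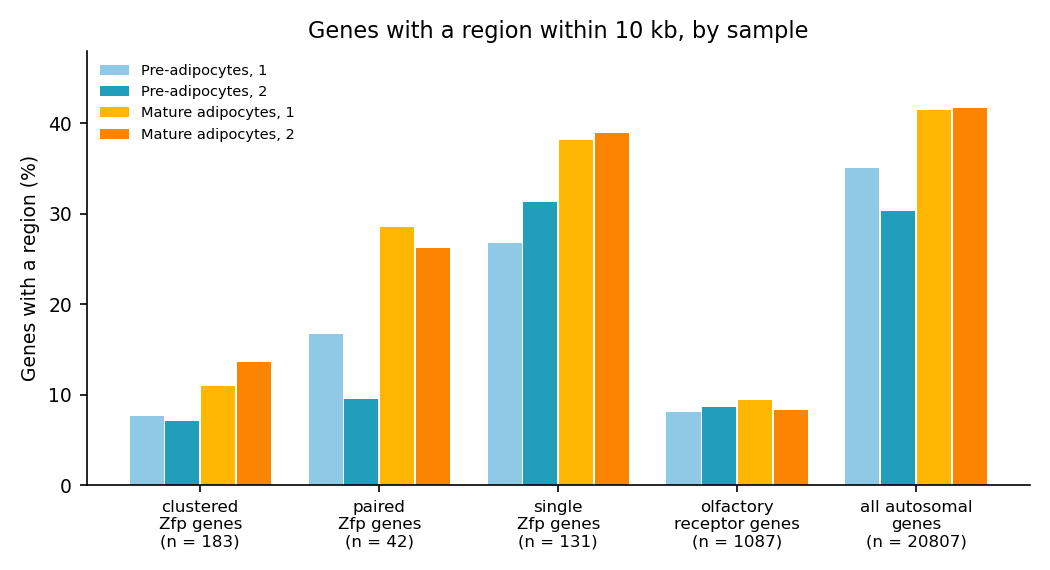
Share of genes (vertical axis, percent) with a macroH2A1.2 region in the gene body or within 10 kb, for clustered, paired and single Zfp genes, olfactory receptor genes and all autosomal protein-coding genes. Each bar is 1 sample, and the clustered Zfp genes (7.10% to 13.7%) stand below the single ones (26.7% to 38.9%) in each of the 4 samples.

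Counted over any sample, 117 of the 356 Zfp genes (32.9%) had a region, against 53.7% of all genes, and 239 had none. They comprised 34 clustered (18.6%), 14 paired (33.3%) and 69 single genes (52.7%). Regions in all 4 samples were present at 29 Zfp genes (8.15%), against 21.1% of all genes. Of these, 6 were clustered, 4 paired and 19 single.

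The share of sequence inside regions gave the same order. Within genes and their flanks it was 0.912%, 0.495%, 1.07% and 1.29% for clustered genes, and 4.05%, 2.22%, 4.17% and 4.06% for single genes. The mean difference was -2.68 percentage points (SD 0.659, lower in 4 of 4 samples, exact permutation p = 0.125, adjusted 0.330), and -0.660 when only regions with a fold enrichment of at least 2 were kept. In gene bodies alone the clustered genes were at 0.172%, 0.232%, 0.383% and 0.300%, and the single genes at 2.83%, 1.31%, 2.73% and 2.80%. Both classes stayed under the 8.48%, 3.94%, 8.83% and 8.54% of all genes with flanks.

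Where a region was present, its enrichment over the control differed between the classes by less than the spread between samples. Mean log2 fold enrichment was 0.75, 1.00, 0.82 and 0.80 at clustered genes and 0.66, 1.05, 0.86 and 0.85 at single genes. The difference was -0.01 (SD 0.07 over 4 samples), with values from -0.05 to 0.09 (exact permutation p = 0.625, adjusted 0.796). Only called regions enter these means, and the calls themselves rested on enrichment over the control, which limits how far the classes could differ. Clustered genes were lower in 4 of 4 samples when gene bodies were taken without flanks, by -0.14 (SD 0.07, 3 to 7 regions per sample at clustered genes). They were also lower when only regions with a fold enrichment of at least 2 were kept, by -0.10 (SD 0.06, exact permutation p = 0.125 for each, the smallest possible). That filter left 2, 6, 4 and 6 regions at clustered genes and selected them by the value compared, so it cannot decide whether the classes differ. Density of control reads in called regions was 18.6, 20.2, 18.5 and 18.7 reads per kb for clustered genes and 18.8, 17.9, 18.9 and 18.8 for single genes, the widest gap being in replicate 2 of pre-adipocytes. Merged regions were shorter at clustered genes, with a median of 3400 bp, than at single genes, with 4800 bp, while the median of all autosomal regions was 4400 bp. In the samples' own regions this order was not kept throughout. The medians were 5000, 2600, 2800 and 3200 bp at clustered genes and 6600, 2600, 3600 and 3000 bp at single genes.

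Starts and ends of genes were rarely covered in either class. A region covered the start of 3, 1, 3 and 2 clustered genes and of 4, 3, 4 and 3 single genes. The last base of the gene was covered at 0, 0, 0 and 1 clustered genes and at 3, 2, 2 and 2 single genes. Over all genes, 6.14%, 2.30%, 5.78% and 5.43% of starts were covered. Single Zfp genes differed by -2.24 points (SD 1.50) and clustered ones by -3.68 points (SD 1.30), lower in 4 of 4 samples (exact permutation p = 0.125, adjusted 0.330). For single genes the difference in replicate 2 of pre-adipocytes was only -0.0072 points.

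The sequence around the genes showed how far the low coverage reached. Within 10 kb of clustered gene bodies, 1.83%, 0.821%, 1.92% and 2.51% of bases lay inside regions. Between 200 and 500 kb from them the share was 5.26%, 2.65%, 6.25% and 5.88%. Around single genes it was 6.89%, 4.33%, 7.49% and 6.99% within 10 kb. It was already 12.1%, 4.62%, 11.4% and 11.1% between 10 and 50 kb, close to the 11.6%, 5.24%, 12.0% and 11.3% between 200 and 500 kb. Coverage was thus lowest in the gene bodies of both classes, and around clustered genes it was highest in the farthest window in each of the 4 samples. It did not climb evenly between them, since in replicate 2 of mature adipocytes the windows of clustered genes from 10 to 50 kb and from 50 to 100 kb held 2.51% and 2.11%, no more than the first 10 kb. Chromosome-wide coverage, weighted by where the genes lie, was 9.30%, 4.72%, 9.75% and 9.46% for clustered genes and 9.94%, 4.88%, 10.7% and 10.4% for single genes, which differ far less than the genes themselves.

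**Figure D2:**
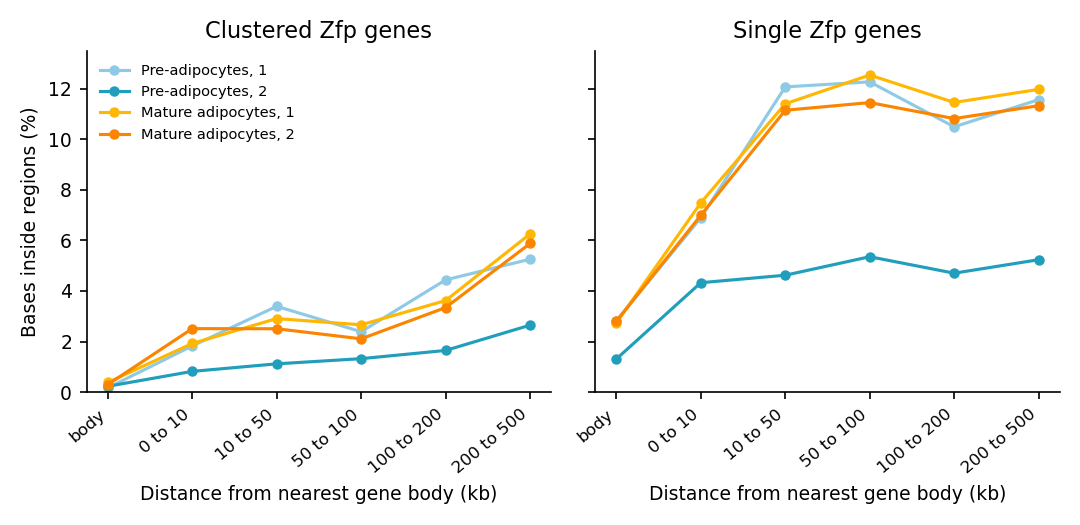
Share of bases inside macroH2A1.2 regions (vertical axis, percent) in gene bodies and in windows of rising distance from the nearest gene body (horizontal axis, kb), for clustered and single Zfp genes. Each line is 1 sample, and bodies of clustered genes are at 0.172% to 0.383% while windows 200 to 500 kb away reach 2.65% to 6.25%.

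Clusters differed from one another. Of the 29, 13 with 81 genes together had no gene with a region in any sample, and the other 16 had 34 genes with a region among 102. Of the 16 clusters with at least 5 genes, 8 had none. The largest of these 8 was the cluster of 15 genes from Zfp84 to Zfp146 at chr7:29768552-30169750. It holds Zfp382, whose upstream sequence is printed above, and Zfp568, a KRAB gene that silences a placental promoter of Igf2. The nearest region to Zfp568 was 340919, 649719, 176119 and 311719 bp away. The others were 12 genes from Zfp180 to Zfp575 on chromosome 7, 10 genes from Zfp989 to Zfp933 and 5 from Zfp990 to Zfp600 on chromosome 4, 6 from Zfp787 to Zfp28, 5 from Zfp329 to Zfp446 and 5 from Zfp60 to Zfp850 on chromosome 7, and 5 from Zfp560 to Zfp846 on chromosome 9. Regions between genes, more than 10 kb from any of them, were present in 3 of the 13 clusters. They took up 0.266% of the Zfp180 to Zfp575 span in replicate 1 of mature adipocytes, 2.05% and 1.32% of the Zfp60 to Zfp850 span in the pre-adipocyte samples, and 1.50% and 0.642% of the Zfp560 to Zfp846 span in the mature adipocyte samples. The longest stretch from the first to the last gene among the 13 was 876 kb, on chromosome 4.

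Other clusters were far from empty. In the cluster of 7 genes from Zfp786 to Zfp746 at chr6:47819266-48086593, regions were present at 4, 4, 4 and 3 genes and took up 13.2%, 4.52%, 9.33% and 8.84% of the span. A merged region of 8.6 kb (chr6:47826801-47835400) held the start of Zfp786 and overlapped the 10 kb around Zfp398. It was called in all 4 samples with fold enrichments of 1.37, 1.95, 1.52 and 1.60. The Zfp786 promoter itself lay inside the calls of replicate 1 of each condition only. A region of 25.2 kb (chr6:47974601-47999800) near Zfp956 was also called in all 4 samples, with 797, 70, 442 and 689 ChIP reads. In the cluster of 5 genes from Zfp653 to Zfp810 at chr9:22055411-22307648, 7.86%, 1.32%, 6.83% and 3.97% of the span lay inside regions. There an 11.0 kb merged region (chr9:22305801-22316800) was called in all 4 samples with fold enrichments of 1.74, 1.93, 1.83 and 2.06. The calls reached the Zfp810 promoter in 3 samples, and the call in replicate 2 of pre-adipocytes did not. Zfp809, which silences retroviruses through their primer binding site, lies in the same cluster and had no region. All 3 genes of the cluster on chromosome 15, Zfp251, Zfp7 and Zfp647, had one, at 2, 3, 3 and 3 genes.

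The 2 largest clusters had few. On chromosome 13, Zfp459 and Zfp85 were the genes with a region among 19 (Zfp712 to Zfp273), at 0, 1, 1 and 1 gene. On chromosome 17, Zfp54, Zfp51, Zfp53, Zfp983 and Zfp946 were those among 18 (Zfp677 to Zfp946), at 1, 3, 3 and 4 genes. A second chromosome 17 cluster of 8 genes from Zfp871 to Zfp563 had regions at 2, 0, 0 and 5 genes, so that most of its calls came from replicate 2 of mature adipocytes. The 8 genes from Zfp553 to Zfp629 on chromosome 7 had regions at 0, 0, 3 and 2 genes, at Zfp768, Zfp688 and Zfp689. Of the clusters with at least 5 genes, the remaining ones with a region had it at 1 gene each, Zfp579 on chromosome 7 and Zfp964 on chromosome 8.

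**Figure D3:**
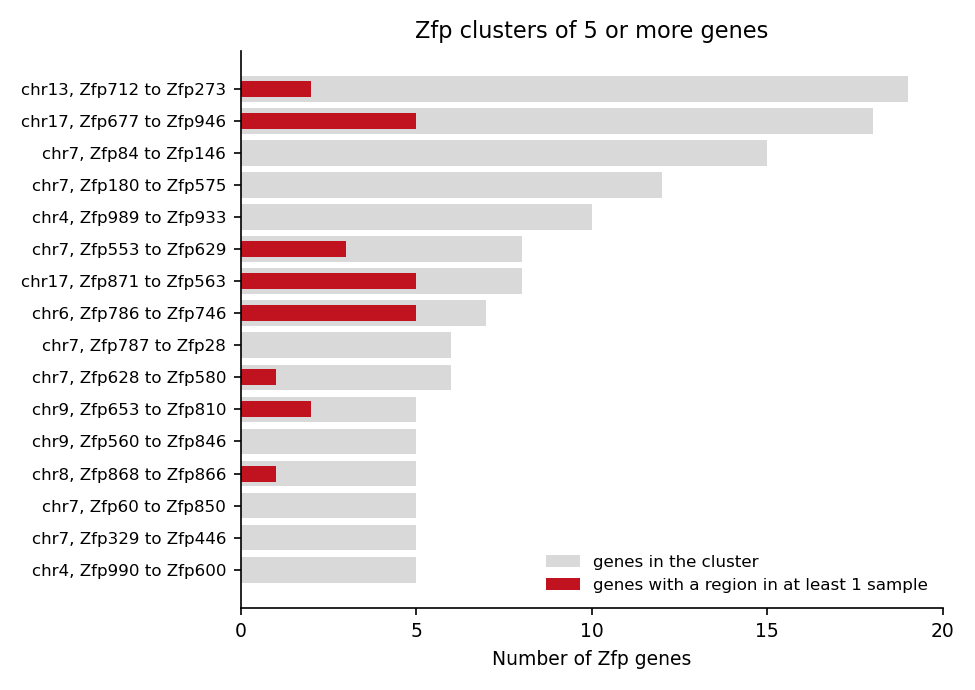
Number of Zfp genes (horizontal axis) in each of the 16 clusters with 5 or more genes, named by chromosome and by first and last gene. Grey bars give the genes in the cluster and red bars those with a region in at least 1 sample, and 8 of the 16 clusters have no red bar.

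Chromosome 7 holds 89 Zfp genes, of which 68 are clustered, and 7 of the 89 had a region. Regions were present at 1, 0, 3 and 3 of the 68 clustered genes and at 0, 1, 2 and 2 of the 13 single genes there. Without chromosome 7 the classes still stood apart, at 11.3%, 11.3%, 14.8% and 19.1% of 115 clustered genes and 29.7%, 33.9%, 40.7% and 41.5% of 118 single genes. The mean difference was then -22.3 points, against -23.9 with it.

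Reads had been kept only where they mapped to 1 place, with up to 2 mismatches allowed, and clustered genes resemble each other. In exons, 8.84% of 50-base stretches of clustered genes were also found in a gene elsewhere, against 9.14% in paired and 1.76% in single genes. Among clustered genes the share was 1.51% in those with a region and 10.7% in those without. More than 10% was shared in 49 of the 183 clustered and 9 of the 131 single genes. When only genes with under 1% shared were kept, 93 clustered genes had regions in 12.9%, 8.60%, 15.1% and 19.4% and 109 single genes in 28.4%, 34.9%, 39.5% and 39.5%. The single genes were still higher in 4 of 4 samples. Only exact matches were counted as shared, so near-identical stretches in these genes can still lack uniquely mapping reads, and the part of mapping in the difference is not settled. Of the 13 clusters with no gene that had a region, 3 had under 1% shared, among them the 15 genes from Zfp84 to Zfp146 with 0.215%, while the 10 genes from Zfp989 to Zfp933 on chromosome 4 had 44.0%. Introns and flanks were not examined, as no genome sequence was used here.

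The Zfp genes with the most sequence inside regions stood singly or in a pair. Zfp703, a transcriptional repressor of the NET family on chromosome 8 (26977325 to 26981461), had 40.9%, 37.5%, 62.7% and 17.7% of the gene and its flanks inside regions, with a mean of 39.7%. Its regions lay beside the gene and not on it, at chr8:26964001-26976600 and chr8:26985601-27023400, each called in all 4 samples. Zfp366, also known as DC-SCRIPT, a co-repressor of nuclear receptors, had 47.6%, 26.3%, 28.3% and 45.7%. Zfp800 had 40.7%, 18.5%, 37.9% and 37.1%, in 10 to 14 separate regions per sample over a gene of 158 kb. The neighbours Zfp663 and Zfp334 on chromosome 2 had 34.7%, 24.3%, 32.9% and 40.9%, and 42.9%, 12.4%, 29.8% and 34.7%. Zfp612 on chromosome 8 had 32.7%, 10.3%, 49.3% and 30.3%. Pre-adipocyte and mature adipocyte samples overlapped for each of these 6 genes, and in 5 of the 6, all except Zfp703, replicate 2 of pre-adipocytes, the shallowest library, had the lowest value.

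**Figure D4:**
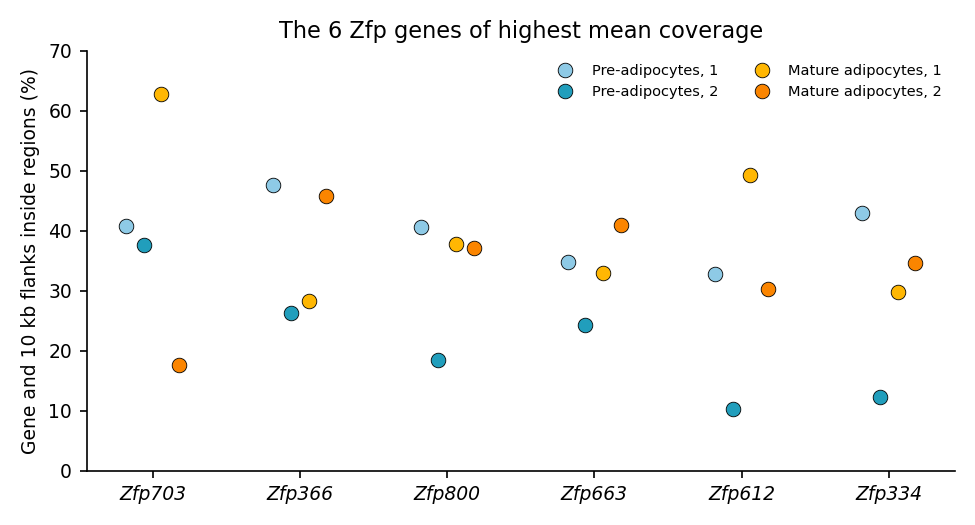
Share of the gene and its 10 kb flanks inside macroH2A1.2 regions (vertical axis, percent) for the 6 Zfp genes with the highest mean. Each point is 1 sample, and for every gene shown the 2 pre-adipocyte points and the 2 mature adipocyte points overlap in range.

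The highest fold enrichment at a Zfp gene was found at Zfp957 on chromosome 14, named after its values were seen. A 7.0 kb region in its body (chr14:79229401-79236400) had fold enrichments of 3.18, 3.95 and 8.15 in both pre-adipocyte samples and replicate 1 of mature adipocytes, and was not called in replicate 2 of mature adipocytes. The value of 8.15 came from 70 ChIP reads over 7 control reads in 1800 bp. Fold enrichment of the median region at single genes was 1.50, 2.00, 1.66 and 1.70.

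Zfp genes with a textbook role were spread over both outcomes, and 9 of the 20 examined had a region, against 32.9% of all Zfp genes and 53.7% of all genes. Zfp57, the KRAB protein that maintains imprints, had regions in all 4 samples with 22.5%, 1.48%, 30.8% and 25.9% of the gene and flanks covered. They lay in the flanks, and the region downstream (chr17:37013601-37042800) held 867, 75, 555 and 377 ChIP reads. Zfp148, a factor that binds GC-rich promoters, was flanked by a pair of regions called in all 4 samples, and 7.75%, 4.88%, 6.50% and 4.99% of its extent was covered. Zfp703 was the third gene with regions in every sample.

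Zfp638, a partner of C/EBP proteins that promotes adipocyte differentiation, had no region in replicate 1 of pre-adipocytes and 6.60%, 18.0% and 9.41% covered in the other samples. Zfp217, a partner of co-repressors, had 0%, 3.70%, 6.05% and 7.40%, and Zfp91, an atypical E3 ubiquitin ligase, had 0%, 2.29%, 4.05% and 9.42%. Zfp281, a regulator of pluripotency, had 18.3%, 8.35%, 10.3% and 0%. Zfp704 had regions in both mature adipocyte samples only, though none was shared by them, and Zfp106, an RNA-binding protein, in replicate 1 of mature adipocytes only. None was called at the other 11, which include Zfp521, which holds back adipocyte differentiation, Zfp516, an activator of Ucp1 in brown fat, Zfp36 or tristetraprolin, which promotes mRNA decay, and the stem cell marker Zfp42. At Zfp521 the nearest region was 24013, 27013, 15814 and 13014 bp from the gene, and at Zfp42 it was 683621, 536221, 627621 and 574821 bp away.

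Genes for the KRAB repression machinery and for macroH2A itself were counted as a fixed list of 18. Regions were present at 44.4%, 38.9%, 44.4% and 44.4% of them, and 13 of 18 (72.2%) had one in at least 1 sample, against 53.7% of all genes. Their median length was 38815 bp, longer than the 17629 bp of all genes. Cbx3 and Cbx5, which encode HP1 proteins, and Ehmt2, an H3K9 methyltransferase, had regions in all 4 samples. Setdb1 had one in replicate 1 of pre-adipocytes only, and Trim28, Dnmt1, Ehmt1, Suv39h2 and Mphosph8 had none.

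The second comparison asked whether the regions at Zfp genes changed with differentiation. More Zfp genes had a region in mature adipocytes (23.7% ± 0.993, SD, n = 2) than in pre-adipocytes (16.0% ± 0.397, SD, n = 2). The difference of 7.72 points was near the 8.88 points of all autosomal genes. An exact two-sided permutation test gave p = 0.333 (adjusted 0.457), the smallest that 2 samples against 2 allow. Covered sequence was 3.10% ± 0.0327 against 2.12% ± 0.975 (exact permutation p = 0.333), and mean log2 fold enrichment was 0.87 ± 0.0013 against 0.85 ± 0.26 (SD, n = 2 each, exact permutation p = 1). The difference in log2 fold enrichment, 0.01, was -0.17 without replicate 1 of pre-adipocytes and 0.20 without replicate 2, so its direction rested on 1 library. The difference in covered sequence, 0.978 points, was 0.289 without replicate 2 of pre-adipocytes and 1.67 without replicate 1. In clustered genes the share of genes with a region was 7.38% ± 0.386 before and 12.3% ± 1.93 after differentiation. In single genes it was 29.0% ± 3.24 and 38.5% ± 0.540 (SD, n = 2 each), without overlap between conditions in either class. All autosomal genes did not overlap either, at 32.7% ± 3.34 and 41.5% ± 0.129 (SD, n = 2 each). The gap between classes was -21.6 points in pre-adipocytes and -26.3 in mature adipocytes, a difference of -4.62 (exact permutation p = 0.333, adjusted 0.457). It is a gap in percentage points, and the ratio of the classes was not tested.

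Region by region, the calls at Zfp genes followed the rest of the genome. Of the 227 regions, 40 (17.6%) were called in all 4 samples, against 20.6% of all autosomal regions. Both mature adipocyte samples alone shared 28 (12.3%), against 12.9%, and both pre-adipocyte samples alone shared 1 (0.441%), against 1.62%. A single sample accounted for 98 (43.2%), against 40.9%. These were 9, 18, 32 and 39 regions by sample, against 3183, 4028, 8919 and 9224 over all autosomal regions. Most came from mature adipocytes in both sets. At clustered genes 25 of 47 regions (53.2%) were called in 1 sample, and at single genes 61 of 149 (40.9%).

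Regions in both mature adipocyte samples and in neither pre-adipocyte sample were present at 12 Zfp genes (3.37%), below the 4.86% of all genes. No Zfp gene showed the opposite, against 0.913% of all genes. The strongest enrichment among the 12 was at Zfp683 on chromosome 4, also known as Hobit, a factor of tissue-resident lymphocytes, with fold enrichments of 3.26 and 4.40. The 2 calls were separate regions, chr4:134050801-134055400 in replicate 1 and chr4:134043801-134046200 in replicate 2. Zfp688 and Zfp689 on chromosome 7 shared a region (chr7:127429801-127434600) with 88 and 100 ChIP reads and fold enrichments of 2.47 and 2.76. At Zfp541, a gene of male meiosis, the values were 2.72 and 2.45. Zfp879 (1.89 and 2.50), Zfp445, a KRAB gene that protects imprints (1.87 and 2.08), Zfp51 (1.83 and 2.04) and Zfp950 (1.77 and 1.79) followed by mean enrichment, each value being the fold enrichment in replicates 1 and 2. Zfp704, whose calls in the replicates were also separate regions, Zfp618, Zfp462 and Zfp648 completed the 12. Replicate 2 of pre-adipocytes was the shallowest library, and replicate 1 had fewer regions over the whole genome (36468 against 38546). The part of depth in these absences was not tested.

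Read counts were compared where a region was called in all 4 samples. Reads were counted only inside each sample's own calls, and the length called in each sample was the offset. Among 12857 such regions, edgeR's quasi-likelihood test called 11 at an adjusted p under 0.05 (0.0856%). Of the 11, 10 had more reads in mature adipocytes (0.0778%) and 1 fewer (0.00778%). None of the 40 at Zfp genes, of which 30 were at single, 5 at paired and 5 at clustered genes, was among them. An unadjusted p under 0.05 was reached by 4 of the 40, against 9.15% of all tested regions, and DESeq2 also called 0, with 2 at an unadjusted p under 0.05, against 1.69% of all tested regions. The median log2 fold change from pre-adipocytes to mature adipocytes was 0.04, against -0.00066 for all tested regions. Of the 40, 25 were above 0, against 49.8% of all tested regions. That count was 20 without the length offset, 23 with DESeq2, 24 with the replicate block and 25 with library sizes taken from the fold enrichment. Changes ran from -0.32 to 0.59, and 35 were smaller than 0.2 in size, with a median standard error of 0.12. They compare read density within calls, whose lengths differed, as near Zfp334 (chr2:165398001-165430400) with 28800, 1800, 23000 and 19600 bp. Sequence that was not called in a sample does not enter, so small changes do not show that occupancy was unchanged. The other 187 regions were outside this test because a sample without a call has no count.

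The smallest adjusted p at a Zfp gene belonged to Zfp612. Its region at chr8:110089001-110095800, which overlaps the 3′ part of the gene, held 166, 51, 209 and 282 ChIP reads in calls of 5600, 3400, 4200 and 6000 bp, with fold enrichments of 1.34, 2.21, 2.33 and 2.39. The log2 fold change was 0.59 ± 0.15 (SE), with an adjusted p of 0.117 by edgeR. By fold enrichment the mature adipocyte samples lay above both pre-adipocyte samples, though replicate 2 of pre-adipocytes, at 2.21, was close to them. The next in this direction were at Zfp438 (chr18:5341601-5349200, 0.38 ± 0.16, adjusted p = 0.463) and between Zfp663 and Zfp334 (chr2:165358001-165372600, 0.22 ± 0.11, adjusted p = 0.576), both by edgeR. The second of these holds the Zfp663 promoter, whose upstream sequence is printed above.

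In the other direction the smallest values were at Zfp41 (chr15:75603801-75616200), with 376, 142, 349 and 404 ChIP reads and a log2 fold change of -0.32 ± 0.11 (SE, adjusted p = 0.301 by edgeR). At Zfp90 (chr8:106340801-106412800), a region of 72.0 kb and the longest of the 227, it was -0.16 ± 0.06 (adjusted p = 0.384), and at Zfp148 (chr16:33507201-33563800) it was -0.10 ± 0.07 (adjusted p = 0.718). The region downstream of Zfp57 had a log2 fold change of 0.01 ± 0.10 (adjusted p = 0.987), and those beside Zfp703 had -0.10 ± 0.11 and 0.03 ± 0.07 (adjusted p = 0.826 and 0.943). None of these passed the threshold.

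**Figure D5:**
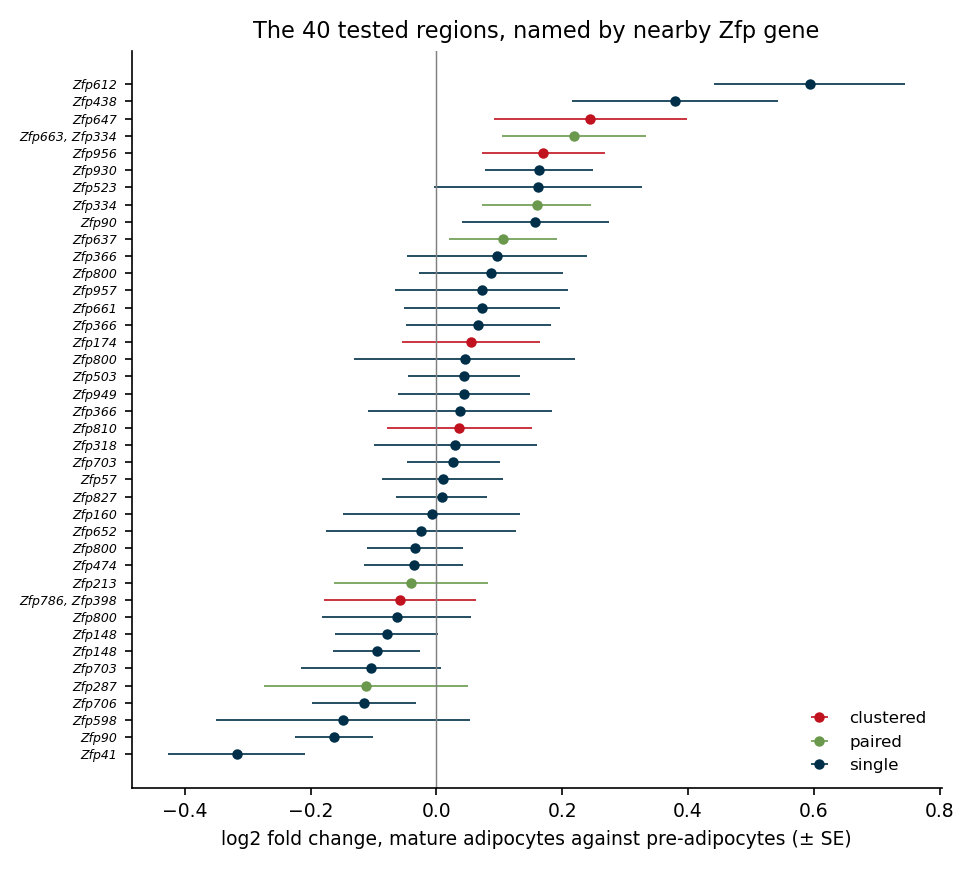
log2 fold change of ChIP reads per called length from pre-adipocytes to mature adipocytes (horizontal axis, points with SE bars). The 40 regions at Zfp genes called in all 4 samples are ordered by value, named by the nearby Zfp gene and coloured by class. Values run from -0.32 at Zfp41 to 0.59 at Zfp612, and none passed an adjusted p of 0.05.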

How the data were processed

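The authors immunoprecipitated macroH2A1.2-GFP, per the labels from 3T3-L1 cells, aligned single reads to mm10 with Bowtie 1.1.2, kept uniquely mapping reads, removed duplicates with Picard and called regions in each sample with SICER 1.1. The deposited tables give, for each region, raw counts of ChIP and control reads, a p-value and FDR (all under 0.001), and a fold enrichment, the ratio of these counts scaled by library size. The control has no table of its own, so 4 samples were analysed. Regions, given in steps of 200 bp, are printed 1-based.

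Shares of genes and of bases were computed per sample and compared by exact permutation tests. ChIP counts were tested with edgeR 4.0.16 (quasi-likelihood, TMM, offset of log called length, Benjamini-Hochberg adjustment), which was checked on simulated counts, with DESeq2 1.42.0 as an alternative. Depth is known only inside regions and relative to the control. Same-numbered samples did not deviate together (correlation 0.00775), so replicate numbers were not used as pairs. Symbols with letters after the digits and sex chromosomes were left out, and 2 genes are not reported here. Named genes are the textbook-role list, the highest-covered genes, clusters of 5 or more genes, genes with regions in a single condition by fold enrichment, and regions with the smallest p. Members and lists were chosen with earlier results of these data known. Python 3.11.15, numpy 2.4.6, pandas 2.3.3 and R 4.3.3 were used.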

Additional observations from a re-analysis of the deposited data

How the results depend on the processing

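Alternatives covered flanks of 5 kb or none, links of 100 and 500 kb, clusters of at least 5 genes, pairs counted as clustered, symbols with letters after the digits, an FDR of 1e-05, a fold enrichment of at least 2 and leaving out each sample. Genes with under 1% shared 50-base stretches and the autosomes without chromosome 7 were added after seeing the data. The share of genes with a region stayed lower in clustered than in single genes under all 15 alternatives, by -25.6 to -7.71 points, and the covered share by -3.0 to -0.660 points. The mature minus pre-adipocyte difference stayed above 0 in 10 of 10 for the share of Zfp genes (2.81 to 8.75 points) and for covered sequence (0.264 to 1.67 points, the highest without pre-adipocyte replicate 1).

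Mean log2 fold enrichment turned direction in some settings. Between clustered and single genes it was 0.0095 with links of 500 kb and 0.0096 for genes with under 1% shared, and between conditions it was -0.17 without pre-adipocyte replicate 1 and 0.20 without pre-adipocyte replicate 2. The cause was not tested. The clustered minus single value ranged from -0.14 (SD 0.07, gene bodies alone) to 0.0096, and was -0.10 (SD 0.06) at a fold enrichment of at least 2 and -0.05 (SD 0.0044) without pre-adipocyte replicate 1.

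No region at a Zfp gene passed an adjusted p of 0.05 under any of 12 alternatives. Among those that kept all 4 samples, the lowest adjusted p by edgeR was 0.0586, with at least 50 reads in every sample. With the replicate block it was 0.0636, at Zfp612 (0 called). Over all tested regions the count of 11 became 27 with the block, 27 with at least 50 reads in every sample, 175 and 215 without replicates 1 and 2 of pre-adipocytes, 7 and 1 without those of mature adipocytes, 6 with DESeq2, 3 without the length offset, 0 with library sizes taken from the fold enrichment, 1 at an FDR of 1e-05 and 1 at a fold enrichment of at least 2.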
